A study of Mus musculus with 48 samples.

Results

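The tumours described here are 24 mouse soft tissue sarcomas given an isotype control antibody, of 48 profiled by bulk RNA sequencing, and the quantity described is how the radiation response differed between tumour kinds. Members were chosen by their labels alone: 4 allografts at 0 Gy, 4 allografts at 20 Gy, 8 primary tumours at 0 Gy and 8 primary tumours at 20 Gy. For each of 19327 genes tested, the radiation log2 fold change in allografts (20 Gy against 0 Gy) was subtracted from that in primary tumours. A positive difference means a higher response in primary tumours and a negative one a higher response in allografts. Higher is meant with its sign, so a gene that fell in primary tumours alone also counts as higher in allografts. All mice were on a 129/SvJae background. Primary tumours arose in the gastrocnemius of p53FL/FL mice aged 6 to 10 weeks after Adeno-Cre, a virus carrying the recombinase that removes the floxed Trp53 segments, followed by 300 µg of the carcinogen MCA. Allografts grew from 50000 cells of line 402230, placed with matrigel in the same muscle of syngeneic mice, so all 8 allografts come from 1 line while the 16 primary tumours arose separately. Tumours of about 150 mm3 received 200 µg of isotype antibody, then 0 or 20 Gy to the hind limb, and were taken 3 days later. The other 24 tumours of the series received the anti-PD-1 antibody muDX400 in the same layout and serve here only as a comparison.

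Ionising radiation breaks DNA, halts dividing cells and, where nucleic acid from damaged cells reaches cytosolic sensors, switches on interferon-stimulated genes. Irradiated tissue also releases chemokines that draw monocytes and neutrophils from the blood. A carcinogen-induced tumour grows slowly among its host's cells, whereas an injected line forms a tumour within weeks, and the cells around the malignant cells can therefore differ before any treatment.

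Depth was alike in the 4 groups, with 31.8 to 53.3 M counted reads per tumour (median 40.35 M, M for mega), and mitochondrial genes took 0.371% to 2.026% of them. That share was 1.091% to 2.026% in untreated and 0.629% to 0.937% in irradiated allografts, without overlap, and 0.371% to 1.615% and 0.6% to 1.534% in primary tumours, which overlapped. It thus moved with dose in allografts, and its part in the results below was not tested. Levels are given as CPM, a gene's counts per 1 M reads after scaling of the libraries by TMM. In bulk tissue, fewer cells of a type and less RNA per cell cannot be told apart. Trp53, the floxed gene, was counted over its whole length, which does not show the deletion. It stood at 26.1, 29.1, 38.4 and 29.8 CPM in untreated and 40.5, 43.7, 42.2 and 40.6 CPM in irradiated allografts, and at medians of 25.0 and 28.9 CPM in untreated and irradiated primary tumours. Its radiation response did not differ detectably between kinds (difference 0.08, SE 0.31, adjusted p = 0.928 by edgeR's quasi-likelihood test with Benjamini-Hochberg adjustment, the test behind each adjusted p for which no other tool is named). Mesenchymal Pdgfra was at 247 CPM or more in every tumour, and the keratin gene Krt5 at 0.0534 CPM or less. The groups were not balanced in other respects. Xist, transcribed from the inactive X chromosome, exceeded 10 CPM in 1 of 4 untreated and 3 of 4 irradiated allografts, and in 5 of 8 untreated and 2 of 8 irradiated primary tumours. Animal identifiers began with 4 in 0 of 4, 3 of 4, 8 of 8 and 7 of 8 tumours of the same groups and otherwise with 5. The labels do not say what this digit stands for, and its part in the results was tested only as a model term, given in the closing section.

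The direct test of the difference called 1 gene, although edgeR called radiation for many more genes in primary tumours, which had 8 per group against 4. In primary tumours 3532 genes (18.3% of those tested) passed an adjusted p of 0.05, 1778 higher (9.2%) and 1754 lower (9.08%). In allografts 372 (1.92%) passed, 352 higher (1.82%) and 20 lower (0.103%), with 4 tumours per group in place of 8 and a median standard error of 0.358 against 0.253. With limma voom and a weight per tumour the calls were 4577 and 4679, so the gap between these counts depended on the method. By edgeR the allograft count was 35 with the identifier digit as a term, and it ran from 72 to 635 without 1 tumour. The difference itself had a median standard error of 0.437, and Swap70 alone passed (0.00517% of genes). At an unadjusted p under 0.05, 1914 genes (9.9%) were counted, 909 with a higher response in primary tumours (4.7%) and 1005 with a higher response in allografts (5.2%). With upper quartile scaling the split was 1468 against 456, as the median difference over all genes moved from -0.02 to 0.12. The number of genes called for the difference depended on the tool, with 4 by DESeq2 (Cap1, Lbh, Mmp13 and Swap70) and 1559 by limma voom with a weight per tumour. The groups below are therefore described by counts and medians beside the 9.9% and the all-gene median of -0.02.

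The genes past the unadjusted threshold mostly had responses of opposite sign in the kinds, 766 of the 909 and 792 of the 1005. Choosing genes by a large difference itself favours opposite signs, and the share over all genes was not counted. Of the 909, 306 were called by radiation in primary tumours, 9 in allografts (1 of them in both) and 595 in neither. Of the 1005, 501 were called in primary tumours, 46 in allografts (7 of them in both) and 465 in neither. Over all genes, 18.3% were called in primary tumours and 1.92% in allografts. The counts among the 909 and the 1005 share tumours with the difference and describe how it was made up.

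Across 38 gene lists holding 591 genes, of which 587 were tested, 30 genes were counted in each direction at the unadjusted threshold. Lists of myeloid and lymphoid cells, interferon gamma targets and muscle had positive medians, whereas lists of actin dynamics, cell division, matrix and vessels and the type I interferon list had negative ones. The leukocyte gene Ptprc (CD45) leaned the other way. Its medians were 129 and 443 CPM in untreated and irradiated allografts, without overlap, and 80.7 and 162 CPM in primary tumours, which overlapped. Ptprc rose in both kinds (1.57 in allografts, 1.07 in primary tumours) with a difference of -0.50 (adjusted p = 0.713), and the part of leukocyte content in the list medians was not tested. The plot of list medians shows both responses behind each difference.

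**Figure D1:**
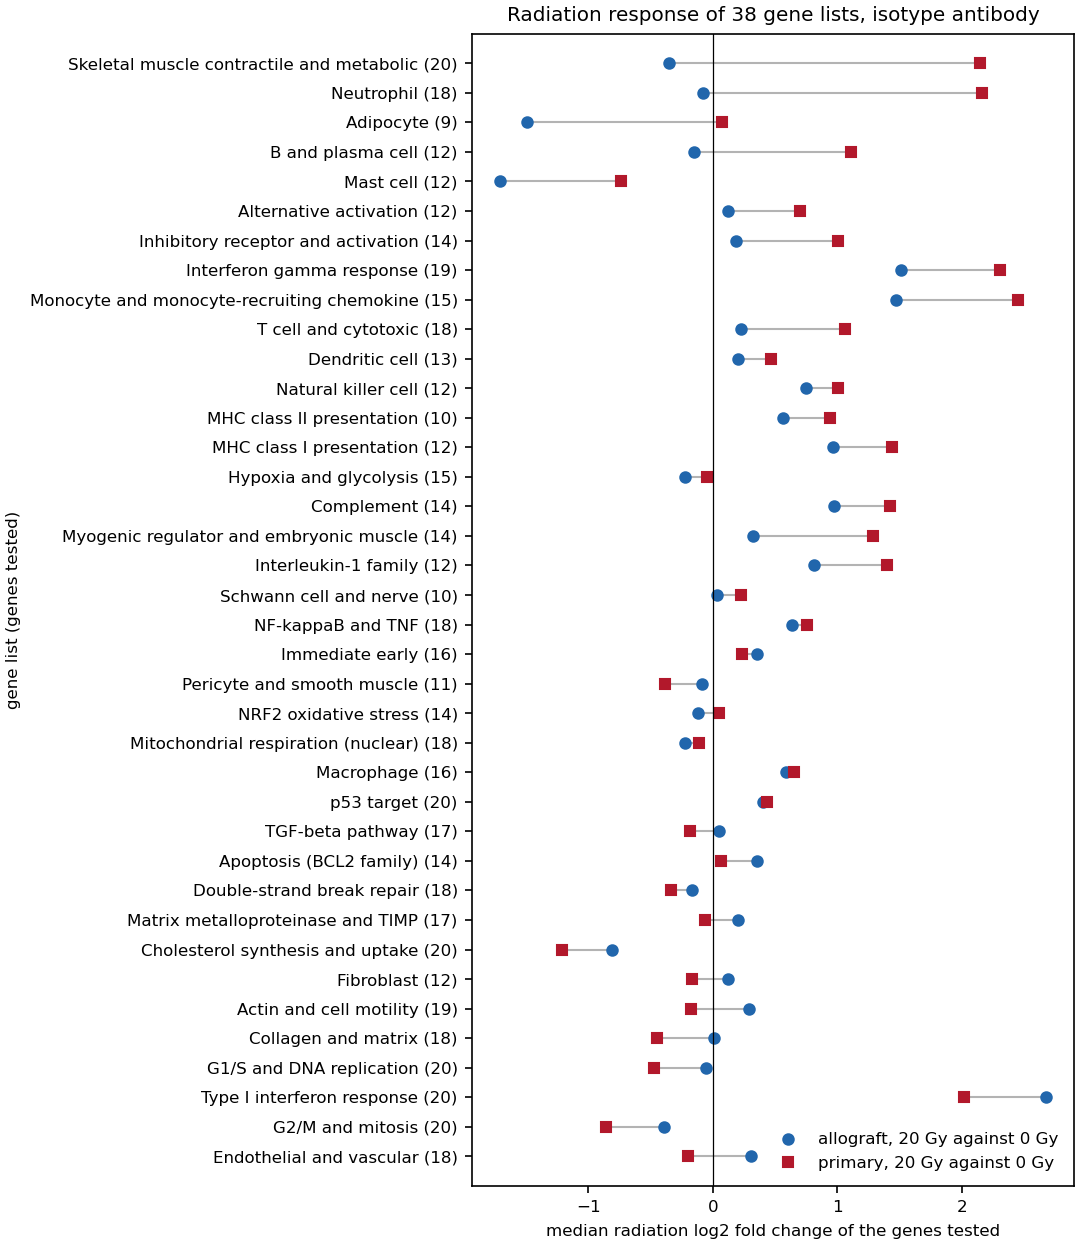
Median radiation log2 fold change (20 Gy against 0 Gy) of the tested genes of each of 38 lists in allografts (circles) and primary tumours (squares) under isotype antibody, ordered by the median difference, with the number of genes tested in parentheses. Neutrophil genes sit at -0.08 in allografts and 2.16 in primary tumours, whereas type I interferon genes sit at 2.68 and 2.02.

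Swap70, which encodes a protein that binds actin filaments and helps activate the small GTPase RAC, was the 1 gene called. In allografts it stood at 76.1, 69.4, 77.3 and 56.9 CPM without radiation and at 122.05, 98.3, 95.7 and 101.96 CPM after 20 Gy. In primary tumours it ranged from 84.8 to 116.4 CPM (median 101.04) without radiation and from 69.8 to 90.8 CPM (median 78.5) after 20 Gy. Every irradiated allograft lay above every untreated one, which held for 9.03% of all genes, while the primary groups overlapped. The gene rose in allografts (0.58, SE 0.14, adjusted p = 0.0155) and fell in primary tumours (-0.34, SE 0.10, adjusted p = 0.0114), a difference of -0.92 (SE 0.17, adjusted p = 0.0393). Untreated primary tumours were higher than untreated allografts (0.50, adjusted p = 0.0051) and irradiated ones lower (-0.41, adjusted p = 0.027). The call was narrow, as it held in 5 of 24 fits that left out 1 isotype tumour and in 4 of 12 other settings, where the difference stayed between -0.982 and -0.783. Its promoter is shown because it is the called gene. The sequence covers the 250 bases before the start at chr7:110221453-110221702 on the + strand (RefSeq, GRCm38.p6). It holds none of the 5 motifs searched in this report, so no base is in capitals.
Swap70: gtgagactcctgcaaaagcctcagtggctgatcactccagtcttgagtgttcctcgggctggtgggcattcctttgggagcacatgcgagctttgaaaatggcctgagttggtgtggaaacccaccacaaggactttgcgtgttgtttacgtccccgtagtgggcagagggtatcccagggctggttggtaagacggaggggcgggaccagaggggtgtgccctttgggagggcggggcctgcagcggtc

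The actin and cell motility list, which was put together with an earlier finding on Swap70 and Coro1b in these tumours known, leaned the same way. Of its 19 genes, 9 (47.4%) had a higher response in allografts at the unadjusted threshold and 0 in primary tumours, beside 5.2% of all genes in that direction. Its median difference was -0.44, from -0.17 in primary tumours and 0.29 in allografts, and 18 of 19 genes were negative. The 9 were Swap70, Coro1b, Coro1c, Arpc2, Wasf2, Cfl1, Actb, Vasp and Rac1. Under upper quartile scaling 4 genes were past the threshold and the median was -0.30.

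Of the 19 genes, 7 fell and 5 rose in primary tumours, beside 9.08% and 9.2% of all genes. Beside Swap70, those that fell were beta-actin Actb (-0.41, SE 0.12, adjusted p = 0.0163), gamma-actin Actg1 (-0.63, SE 0.14, adjusted p = 0.0013), the coronin Coro1c (-0.52, SE 0.13, adjusted p = 0.003), cofilin Cfl1 (-0.35, SE 0.12, adjusted p = 0.033), Rac1 (-0.31, SE 0.08, adjusted p = 0.0051) and Rhoa (-0.33, SE 0.10, adjusted p = 0.0178). None of those 6 was called in allografts, where their values lay between -0.24 and 0.23. Actb ranged from 3711 to 6114 CPM (median 4450) in untreated and from 2864 to 4091 CPM (median 3353) in irradiated primary tumours. Its allografts stood at 3250, 3839, 3947 and 2864 CPM untreated and at 4508, 3733, 3801 and 4222 CPM irradiated, so the groups overlapped in both kinds. The 5 that rose in primary tumours are used mainly in blood cells, a grouping made after their values were seen, and are given with allograft values alongside: coronin Coro1a (0.84 and 0.89), Rac2 (0.80 and 1.32), the GTPase activator Dock2 (0.84 and 1.05), Was (0.80 and 1.05) and the myosin Myo1f (1.10 and 1.33). Rac2 and Myo1f were also called in allografts (adjusted p = 0.0331 and 0.0243), and none of these 5 was past the unadjusted threshold for the difference. Arpc2, a subunit of the ARP2/3 complex that starts branched filaments, had 0.29 in allografts and -0.19 in primary tumours (difference -0.48, SE 0.16, adjusted p = 0.465).

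**Figure D2:**
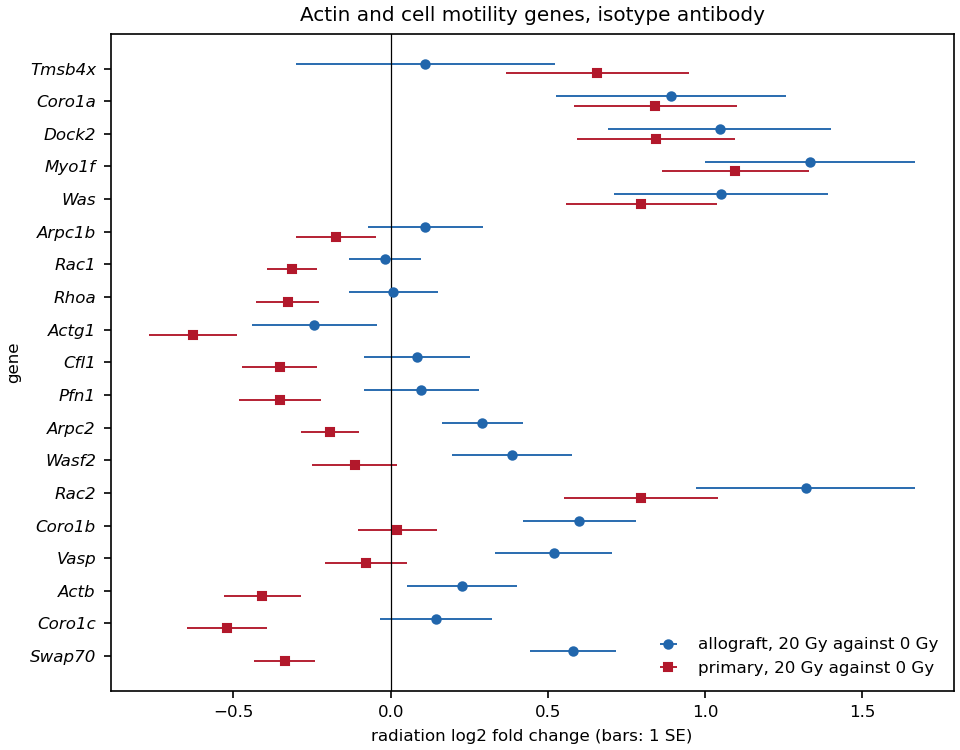
Radiation log2 fold change with 1 standard error for 19 actin and cell motility genes in allografts (circles) and primary tumours (squares) under isotype antibody, ordered by the difference. Swap70 lies at 0.58 and -0.34, Actb at 0.23 and -0.41, and Coro1a, Dock2, Myo1f and Was lie close together in both kinds.

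Other genes of the same direction among the 12 with the smallest p did not pass after adjustment in edgeR (adjusted p from 0.227 to 0.393). Lbh, a transcriptional regulator of limb bud and heart, stood at 230, 257, 207 and 183 CPM in untreated and 314, 249, 278 and 339 CPM in irradiated allografts. In primary tumours it ranged from 279 to 869 CPM (median 386) untreated and from 160 to 309 CPM (median 206) irradiated, a fall there (-1.01, SE 0.18, adjusted p = 9.5e-05). Its difference was -1.44 (SE 0.31, adjusted p = 0.227, and 0.0151 by DESeq2). Several of these genes rose in allografts with values near 0 in primary tumours. Cap1, which recycles actin monomers, had 0.63 against -0.18, Plekho2 0.93 against -0.01, and Abi1, a subunit of the WAVE complex that drives ARP2/3, 0.48 against -0.09. All 3 rises were called (adjusted p = 0.0189, 0.00431 and 0.0181), as was that of Ticam1, the adaptor of Toll-like receptor 3 (0.66, adjusted p = 0.032). Tgfbr1, a TGF-beta receptor, stood at 92.7, 79.4, 96.0 and 66.8 CPM in untreated and 212, 110.9, 120 and 154 CPM in irradiated allografts, with a difference of -1.21 (SE 0.30, adjusted p = 0.393). In contrast, Elovl1, an enzyme of very long chain fatty acids, Akr1b8, an aldo-keto reductase, Pcyox1 and Mtmr4 fell in primary tumours (-0.32, -0.81, -0.55 and -0.65), while their allograft values of 0.26, 0.84, 0.07 and 0.32 were not called. Of these, Pcyox1 lay lower in every irradiated primary tumour than in every untreated one, which held for 0.409% of all genes.

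Some extracellular proteases had large negative values. Mmp13, a collagenase, stood at 41.8, 23.2, 44.6 and 16.9 CPM in untreated allografts and at 722, 140, 470 and 266 CPM in irradiated ones. In primary tumours it ranged from 3.16 to 31.3 CPM (median 11.6) without and from 8.47 to 31.6 CPM (median 10.9) with radiation. The allograft groups did not overlap and the primary groups covered each other. Mmp13 rose in allografts by 3.66 (SE 0.73, adjusted p = 0.0035) and had a primary value of -0.00 (SE 0.47), which gave a difference of -3.66 (SE 0.84, adjusted p = 0.291, and 0.00999 by DESeq2). Plau, which encodes the urokinase that activates plasminogen, went from 156, 154, 130.6 and 129 CPM to 537, 366, 370 and 459 CPM in allografts, with no overlap. In primary tumours its medians were 193 and 154 CPM, and the difference was -2.26 (SE 0.60, adjusted p = 0.393). Mmp10, a stromelysin, had a difference of -4.51 (SE 1.68, adjusted p = 0.466) with wide scatter, from 27.7 to 96.2 CPM in untreated and 88.6 to 644 CPM in irradiated allografts. Mmp14, a membrane-bound activator of other metalloproteinases, fell in primary tumours (-0.66, SE 0.18, adjusted p = 0.0076), with -0.01 in allografts. Of the 17 genes in the list of matrix metalloproteinases and their inhibitors, these 4 (23.5%) were past the unadjusted threshold and the median difference was -0.33, and -0.17 without untreated primary tumour 7.

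The AP-1 site, bound by FOS and JUN proteins, is a known element of collagenase promoters. Its letters TGANTCA were searched on both strands in the 250 bases before each start. They occurred in 5 of 12 promoter windows found for 11 genes of the protease list (41.7%), beside 6.7% of 32851 windows of all genes. The genes were Mmp3, Mmp10, Mmp12, Mmp13 and Plaur. Their differences were -2.31, -4.51, -0.29, -3.66 and -0.35, so genes with the letters had both large and small values. The Mmp13 window (chr9:7272264-7272513, + strand, RefSeq, GRCm38.p6) is printed for its single AP-1 match, in capitals, which begins 35 bases before the start.
Mmp13: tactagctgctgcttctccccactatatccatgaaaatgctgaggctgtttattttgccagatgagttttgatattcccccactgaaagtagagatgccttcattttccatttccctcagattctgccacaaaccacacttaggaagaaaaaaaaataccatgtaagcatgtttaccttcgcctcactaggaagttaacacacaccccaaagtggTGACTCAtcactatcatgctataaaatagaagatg

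Neutrophil genes held the highest median of any immune list, 2.49, with 2.16 in primary tumours and -0.08 in allografts. Of 18 genes, 17 were positive and 7 (38.9%) were past the unadjusted threshold towards primary tumours, beside 4.7% of all genes. That count was 4 by limma voom without weights, 5 with the identifier digit as a term and 11 with Xist status as a term. The 7 were S100a9, Retnlg, Camp, Ngp, Ltf, Clec4d and Clec4e.

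Some members rose in primary tumours, 8 of the 18, beside 9.2% of all genes. Clec4e, a lectin receptor that senses fungal and mycobacterial glycolipids, ranged from 0.602 to 4.64 CPM in untreated and from 8.05 to 53.2 CPM in irradiated primary tumours, without overlap, which held for 1.45% of all genes. Its allografts stood at 7.97, 12.9, 13.6 and 10.6 CPM and then at 15.2, 17.4, 21.8 and 20.0 CPM, so the untreated allografts were already above every untreated primary tumour. The difference for Clec4e was 2.40 (SE 0.87, adjusted p = 0.466). Clec4d, its neighbour in the same family, rose in primary tumours by 2.52 (SE 0.52, adjusted p = 0.0006), with -0.32 in allografts and a difference of 2.84 (SE 0.88, adjusted p = 0.456). The other 6 that rose in primary tumours were the chemokine receptor Cxcr2 (2.90), the neutrophil collagenase Mmp8 (3.34), the chemokines Cxcl2 (3.23) and Cxcl3 (2.76), the growth factor receptor Csf3r (1.94) and the decoy receptor Il1r2 (2.33). None of these 6 was called in allografts, where the values ran from -0.21 to 1.27. Csf3r was nonetheless higher in every irradiated allograft (84.9 to 148 CPM) than in every untreated one (37.1 to 67.9 CPM). Monocytes and macrophages also make Clec4d, Clec4e, Cxcl2 and Cxcl3.

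Camp, Ngp and Retnlg had lower values in irradiated than in untreated allografts. Camp, which encodes the cathelicidin peptide, stood at 1.60, 3.12, 21.01 and 1.84 CPM in untreated and at 0.662, 0.222, 0.411 and 0.203 CPM in irradiated allografts. In primary tumours it ranged from 0 to 3.08 CPM and from 0.159 to 6.25 CPM. Thus the irradiated allografts all lay below the untreated ones, which held for 4.49% of all genes, and the difference was 5.18 (SE 1.90, adjusted p = 0.466). Ngp, a granule protein gene, fell in allografts (-7.27, SE 1.87, adjusted p = 0.0281) and fell in primary tumours too (-3.20, SE 1.16, adjusted p = 0.0483). Retnlg, a secreted resistin-like protein gene, was at 1.48, 6.07, 7.74 and 5.99 CPM in untreated and at 0.720, 2.07, 0.740 and 0.836 CPM in irradiated allografts, and overlapped, with a difference of 3.93 (SE 1.62, adjusted p = 0.478). Ly6g, the usual surface marker of neutrophils, was at 0.765 CPM or less in every tumour and had a difference of 0.38 (SE 1.45, adjusted p = 0.93).

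A single tumour weighed on this list. Irradiated primary tumour 3 had a neutrophil list mean of 5.12 in log2(CPM + 1), and the other 7 lay between 1.85 and 3.54. Untreated primary tumours lay between 1.20 and 2.64, untreated allografts between 2.63 and 3.86 and irradiated allografts between 2.69 and 3.24. Without tumour 3 the median difference of the list was 1.66. The same tumour held the highest level of Clec4d, Clec4e, Trem1 and Pf4 of the irradiated primary tumours.

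C/EBP factors control granule genes, and the letters TTGCNNAA were found on either strand in 7 of 17 windows of 16 neutrophil genes (41.2%), beside 9.6% of all windows. The genes were Clec4e, Ltf, Ly6g, Mmp8, Ngp, Retnlg and S100a9. The window of Retnlg (chr16:48872358-48872607, + strand, RefSeq, GRCm38.p6) is shown as that of a neutrophil gene past the unadjusted threshold for the difference, with 1.65 in primary tumours (adjusted p = 0.215) and -2.28 in allografts (adjusted p = 0.528). Its match, in capitals on the opposite strand, begins 246 bases before the start.
Retnlg: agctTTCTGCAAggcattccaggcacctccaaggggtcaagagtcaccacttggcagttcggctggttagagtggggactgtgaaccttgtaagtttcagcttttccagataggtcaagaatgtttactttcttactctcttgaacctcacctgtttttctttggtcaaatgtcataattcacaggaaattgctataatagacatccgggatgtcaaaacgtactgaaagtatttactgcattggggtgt

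**Figure D3:**
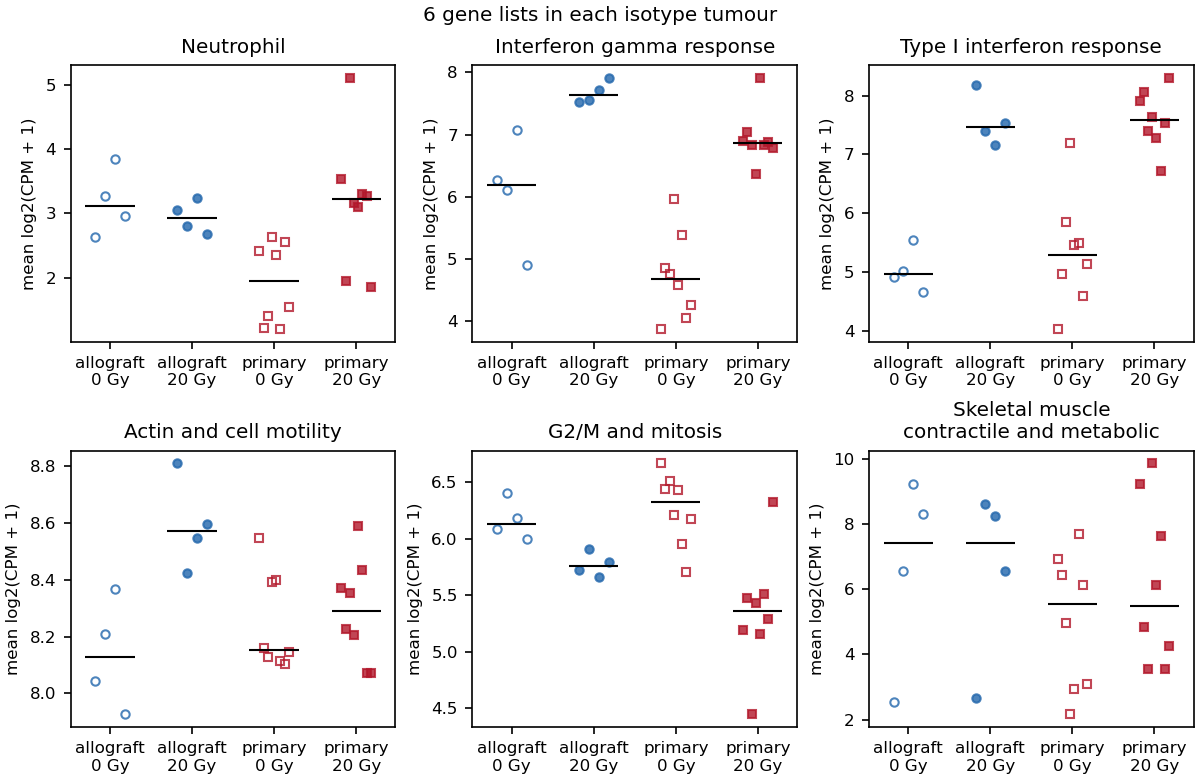
Mean log2(CPM + 1) of 6 gene lists in each of 24 isotype tumours, with allografts as circles, primary tumours as squares, irradiated tumours filled and group medians as lines. Irradiated primary tumour 3 is the highest neutrophil value at 5.12, and the muscle list spreads from 2.16 to 9.88 among tumours of all groups.

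The list drawn up for alternative activation of macrophages leaned towards primary tumours. It also holds Nos2, Trem1 and Vegfa, and whether its values came from macrophages of that state was not tested. Of 12 tested genes, 3 (25.0%) were past the unadjusted threshold, all towards primary tumours, and the median difference was 0.84. Irradiated primary tumour 3 had a list mean of 5.26 in log2(CPM + 1), and the other 7 lay between 3.65 and 4.71. Trem1, an activating receptor of myeloid cells, rose in primary tumours from a median of 2.16 to 13.5 CPM (2.57, SE 0.56, adjusted p = 0.001), with 0.22 in allografts and a difference of 2.35 (SE 0.93, adjusted p = 0.476). Vegfa, the angiogenic growth factor, was lower in every irradiated allograft (126.6, 114.8, 83.5 and 120.7 CPM) than in every untreated one (370, 307, 176 and 199 CPM). Its difference was 1.61 (SE 0.68, adjusted p = 0.48). Retnla, a gene of alternative activation, stayed at or below 3.85 CPM.

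Monocyte genes and the chemokines that recruit monocytes rose in primary tumours. Of 15 genes in the monocyte list, 14 rose there, beside 9.2% of all genes. In allografts 0 were called, beside 1.82% of all genes, although the list mean was higher in every irradiated allograft (6.54 to 6.96 in log2(CPM + 1)) than in every untreated one (5.49 to 5.90). For the difference 4 (26.7%) were past the unadjusted threshold, and the median was 0.67. That median was 0.47 without irradiated primary tumour 3, the tumour highest in neutrophil genes, which also had the highest list mean (7.71) and the highest Ccl6, Ccl9 and Ccl3 of the irradiated primary tumours. Ccl6 stood at 22.6, 65.5, 38.3 and 54.9 CPM in untreated and 31.5, 42.8, 61.4 and 47.6 CPM in irradiated allografts. In primary tumours it ranged from 6.77 to 27.3 CPM (median 14.9) and then from 20.8 to 194 CPM (median 83.9). Thus allograft values overlapped and primary medians moved from below theirs to above (2.76, SE 0.50, adjusted p = 0.00011), and the difference was 2.75 (SE 0.83, adjusted p = 0.456). Ccl9 and Ccl8 had primary values of 1.86 and 2.45 and allograft values of 0.00 and 0.05, with differences of 1.86 (SE 0.64) and 2.40 (SE 0.86), both with adjusted p = 0.466. Ccl3 had values in the same direction in both kinds, 3.37 and 1.47, and no overlap between doses in either. Ccl2 and Ccl7, the main ligands of the monocyte receptor CCR2, rose in primary tumours (1.91 and 2.63) beside allograft values of 1.82 and 2.07, and their differences of 0.09 and 0.56 were not past the unadjusted threshold.

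Ltb4r1 and Il1rn, outside the monocyte list, also had positive differences, and both were highest in irradiated primary tumour 3 of that group. Ltb4r1, the receptor for the neutrophil attractant leukotriene B4, stood at 5.11, 8.20, 7.36 and 4.55 CPM in untreated and 5.14, 6.82, 7.78 and 8.94 CPM in irradiated allografts. Primary tumours ranged from 0.477 to 2.37 CPM (median 0.843) untreated and from 1.68 to 17.1 CPM (median 8.61) irradiated. It rose in primary tumours by 3.10 (SE 0.47, adjusted p = 1e-05), with 0.18 in allografts and a difference of 2.91 (SE 0.76, adjusted p = 0.393). Il1rn, the natural antagonist of interleukin-1, did not overlap between doses in either kind, with values of 3.07 in primary tumours (adjusted p = 6.7e-08) and 1.44 in allografts and a difference of 1.63 (SE 0.54, adjusted p = 0.465). Pf4, platelet factor 4, which macrophages and megakaryocytes make, was at 13.3, 12.6, 9.93 and 27.3 CPM in untreated and 4.32, 5.75, 4.44 and 5.90 CPM in irradiated allografts, with a difference of 2.25 (SE 0.70, adjusted p = 0.456).

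**Figure D4:**
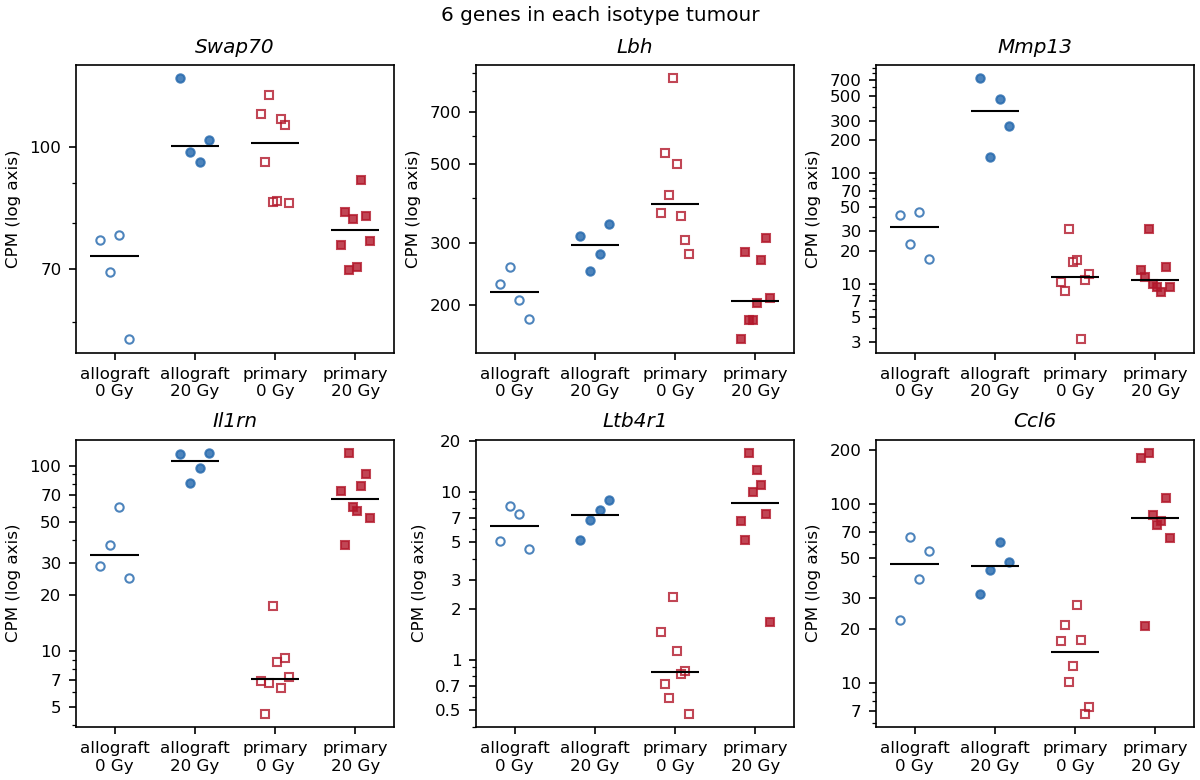
CPM on a log axis of 6 genes in each of 24 isotype tumours, with allografts as circles, primary tumours as squares, irradiated tumours filled and group medians as lines. Swap70, Lbh and Mmp13 have negative differences, with Lbh at -1.01 in primary tumours and 0.43 in allografts, while Il1rn, Ltb4r1 and Ccl6 have positive ones. Untreated primary medians of Il1rn, Ltb4r1 and Ccl6 (7.06, 0.843 and 14.9 CPM) lie below those of untreated allografts.

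The interferon lists had medians of opposite sign. All 19 interferon gamma targets rose in primary tumours (median 2.31), beside 9.2% of all genes, and 2 of 19 in allografts (median 1.51), beside 1.82%. All 19 differences were positive with a median of 0.70. By median the list was lower in primary tumours than in allografts at both doses (-1.23 at 0 Gy and -0.57 at 20 Gy). Cxcl9 and Iigp1 (10.5% of the list) were past the unadjusted threshold. Cxcl9, a chemokine for T cells, stood at 405, 408, 694 and 122.96 CPM in untreated and 580, 730, 952 and 1187 CPM in irradiated allografts, and at medians of 34.5 and 517 CPM in primary tumours without overlap. Its difference was 2.18 (SE 0.95, adjusted p = 0.486). Untreated primary tumours were lower than untreated allografts in Cxcl9 (-2.75, adjusted p = 0.0036), and at 20 Gy the kinds had a value of -0.57 (adjusted p = 0.68). Cd274, which encodes PD-L1, did not overlap between doses in either kind and had a difference of 1.16 (SE 0.64, adjusted p = 0.544). Leaving out untreated allograft 3 lowered the list median to 0.325.

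All 20 type I interferon genes rose in both kinds, with medians of 2.68 in allografts, where 1.82% of all genes rose, and 2.02 in primary tumours, where 9.2% did. The differences were negative in 19 of 20 genes with a median of -0.52, and 0 passed the unadjusted threshold. Ifit3, which binds viral RNA together with IFIT1, stood at 41.8, 48.4, 71.5 and 38.6 CPM in untreated and 831, 373, 295 and 432 CPM in irradiated allografts. Primary tumours ranged from 23.9 to 382 CPM (median 84.4) and from 196 to 851 CPM (median 527), and overlapped. Its difference was -0.98 (SE 0.75, adjusted p = 0.625). The list median moved to -0.04 without untreated primary tumour 4, which had the highest untreated level (7.19 in mean log2(CPM + 1), against 4.03 to 5.85 in the other 7), and to -0.13 with Xist status or -0.14 with the identifier digit as a model term. Without untreated allograft 3 it was -0.79.

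Both interferon lists carried their usual promoter letters. The interferon-stimulated response element, on either strand, occurred in 7 of 18 windows of 15 type I genes (38.9%) beside 3.0% of all windows. The gamma-activated site, TTCNNNGAA, occurred in 6 of 15 windows of 13 interferon gamma genes (40.0%) beside 7.0%. The Ifit3 window (chr19:34583279-34583528, + strand, RefSeq, GRCm38.p6) is shown because that gene rose in both kinds. Its 2 matches are in capitals, on the opposite strand.
Ifit3: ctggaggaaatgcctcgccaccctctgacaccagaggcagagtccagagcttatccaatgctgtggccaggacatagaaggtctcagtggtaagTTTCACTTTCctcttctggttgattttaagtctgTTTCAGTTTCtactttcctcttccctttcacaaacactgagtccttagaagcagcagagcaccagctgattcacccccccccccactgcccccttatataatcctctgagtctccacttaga

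Lymphocyte lists had higher median responses in primary tumours, with few single genes behind them. Their levels, primary against allograft, had median log2 values of -1.20 at 0 Gy and -0.55 at 20 Gy for T cells. For inhibitory receptors these were -0.935 and -0.269, and for B and plasma cells -0.793 and 0.537. By median, T cell and inhibitory receptor genes thus stayed lower in primary tumours at both doses. The B and plasma cell list had a median difference of 1.33, with 2 of 12 genes (16.7%) past the unadjusted threshold. Mzb1, which assists antibody secretion, was among them (2.29, SE 1.05, adjusted p = 0.491). The count of genes past the threshold was 0 with Xist status or the identifier digit as a term, and 4 with a weight per tumour. Jchain, which joins antibody units, was lower in every irradiated allograft (20.9, 32.7, 25.5 and 16.7 CPM) than in every untreated one (41.1, 57.0, 44.6 and 61.6 CPM), while its primary medians were 10.8 and 25.7 CPM. Of this list, 2 genes were below 1 CPM in all 24 tumours, and the list median fell to 0.86 without irradiated primary tumour 5 and to 0.78 with Xist status as a term. Igkv8-30, an immunoglobulin light chain segment that shares reads with related segments, had a difference of 4.04 (SE 1.30, adjusted p = 0.465).

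The inhibitory receptor list had a median of 0.73, which was 0.48 without irradiated primary tumour 5, and 1 gene past the threshold on each side. Ctla4, a T cell checkpoint receptor, rose in primary tumours (1.76, SE 0.54, adjusted p = 0.018), with a difference of 2.08 (SE 0.92, adjusted p = 0.486), and 15.1 and 10.1 CPM in irradiated tumours 5 and 6 against 4.14 CPM or less in the other 6. Entpd1, which encodes the ectonucleotidase CD39 of lymphocytes, macrophages and vessels, fell in primary tumours (-1.05, SE 0.26, adjusted p = 0.0042), with 0.45 in allografts and a difference of -1.50 (SE 0.46, adjusted p = 0.456). In the T cell and cytotoxic list all 18 differences were positive with a median of 0.61, and 0 of 18 passed the unadjusted threshold. That median was 0.23 without irradiated primary tumour 5, 0.40 without tumour 6 of the same group and 1.08 without untreated primary tumour 4. Cd8a had a difference of 0.33 (SE 1.03) and Foxp3, the regulatory T cell factor, 0.59 (SE 0.96). For macrophages the list median was 0.01, and the marker Adgre1 had -0.61 (SE 0.53, adjusted p = 0.669).

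Cell division genes had lower values in irradiated primary tumours. Of 20 G2/M genes, 18 fell in primary tumours (median -0.86), beside 9.08% of all genes. In allografts 0 were called (median -0.39), beside 0.103% of all genes. All 20 differences were negative with a median of -0.54. For the difference 0 passed the unadjusted threshold by edgeR, 4 by limma voom with a weight per group and 11 with a weight per tumour. Over all genes, 1005, 1522 and 2759 of 19327 passed in that direction in the same fits. Plk1, a mitotic kinase, had 55.8, 65.6, 65.7 and 45.3 CPM in untreated and 39.1, 67.0, 46.0 and 51.8 CPM in irradiated allografts, and medians of 59.0 and 28.3 CPM in primary tumours, with a difference of -0.87 (SE 0.46, adjusted p = 0.531, and 0.0392 by limma voom with a weight per tumour). Mki67, the proliferation marker, had -0.81 in primary tumours (adjusted p = 0.02), -0.35 in allografts and a difference of -0.46 (SE 0.43). In the G1/S and replication list 2 of 20 genes (10.0%) were past the unadjusted threshold towards allografts, beside 5.2% of all genes in that direction. The 2 were Pola1, a subunit of the replicative polymerase (-0.71, SE 0.33), and E2f1 (-0.58, SE 0.28). The count was 0 with upper quartile scaling or the identifier digit as a term. It was 10 with a weight per tumour, where 2759 of all genes passed in that direction. Irradiated primary tumour 8 kept a G2/M mean of 6.32, inside the untreated range of 5.70 to 6.67, while the other 7 lay between 4.45 and 5.51. Cdkn1a, the p53-induced cell cycle inhibitor, rose in both kinds without overlap (2.21 in primary tumours, 1.77 in allografts), with a difference of 0.44 (SE 0.39, adjusted p = 0.674).

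Cholesterol genes fell in primary tumours. All 20 were called there (median -1.21), beside 9.08% of all genes, and 5 in allografts (median -0.81), beside 0.103%. The median difference was -0.38, which was -0.24 without untreated primary tumour 1. Of the list, 3 genes (15.0%) were past the unadjusted threshold, among them Dhcr7 and Sc5d, enzymes late in the pathway. Sc5d stood at 28.4, 28.8, 23.96 and 25.4 CPM in untreated and 23.1, 20.7, 20.5 and 22.4 CPM in irradiated allografts. In primary tumours it ranged from 30.6 to 75.1 CPM (median 39.8) and from 14.7 to 29.5 CPM (median 23.8). The doses did not overlap in either kind. Sc5d fell in primary tumours (-1.03, SE 0.18, adjusted p = 7.9e-05) and had -0.30 in allografts, a difference of -0.73 (SE 0.31, adjusted p = 0.48). Dhcr7 fell in primary tumours (-0.84, SE 0.19, adjusted p = 0.0014) and had -0.06 in allografts, a difference of -0.77 (SE 0.32, adjusted p = 0.478).

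The endothelial, collagen and fibroblast lists had negative medians. The endothelial list stood at -0.65, from -0.20 in primary tumours and 0.31 in allografts, with 14 of 18 genes negative and 1 (5.56%) past the unadjusted threshold. That gene was Kdr, the main VEGF receptor, at 24.9, 31.7, 43.0 and 22.9 CPM in untreated and 55.4, 62.1, 75.6 and 86.0 CPM in irradiated allografts, without overlap. Its primary medians were 37.6 and 46.0 CPM, and the difference was -0.97 (SE 0.46, adjusted p = 0.495). The collagen list had a median of -0.45 with 0 of 18 genes past the threshold, led by Tnc, a matrix glycoprotein of wounds (-1.77, SE 0.98). Its median was -0.23 without irradiated allograft 3, -0.29 without untreated primary tumour 3 and -0.74 without irradiated primary tumour 2. With the identifier digit as a term it was -0.80. The fibroblast list had -0.42 with 3 of 12 genes (25.0%) past it in both directions. That median rested on single tumours: it was -0.08 without irradiated allograft 3, -0.25 without untreated primary tumour 4, -0.65 without irradiated allograft 1, -0.68 without irradiated primary tumour 2 and -0.69 without untreated allograft 3. Cd34, a surface protein of fibroblasts and vessels, had -1.03 (SE 0.39), while Has1, a hyaluronan synthase, had 2.07 (SE 0.87). Ly6a, an interferon-inducible surface protein, had 1.29 (SE 0.59) and rose in primary tumours by 2.16 (SE 0.35, adjusted p = 3.1e-05).

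Muscle and fat lists had large medians with wide scatter between tumours. The skeletal muscle list had a median difference of 2.71, positive in all 20 genes, with 0 past the unadjusted threshold. Creatine kinase Ckm stood at 5.58, 187, 2251 and 1098 CPM in untreated and 4.15, 994, 570 and 222 CPM in irradiated allografts, and ranged from 8.68 to 601 CPM and from 28.0 to 5082 CPM in primary tumours. The list mean spread over most of its range within every group, so the difference (3.35, SE 2.18 for Ckm) was within the scatter. The list median was -0.05 by limma voom with a weight per tumour. It was 1.54 without irradiated primary tumour 4 and 1.68 without untreated allograft 3. The adipocyte list had a median of 2.17 with 0 of 9 genes past the threshold. Adipoq, the fat hormone adiponectin, was at 0, 0.619, 2.43 and 16.5 CPM in untreated allografts, highest in untreated allograft 4, and the list median without that tumour was 1.02, and 3.45 without irradiated allograft 3. The mast cell list had 0.93 with 0 of 12 genes past it, 0.15 with Xist status and -1.0 with the identifier digit as a term. Without 1 tumour its median ran from 0.39 (irradiated primary tumour 2) to 1.54 (irradiated allograft 3), with 0.52 without untreated allograft 3, 0.61 without irradiated allograft 1 and 1.42 without untreated primary tumour 4.

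The other 20 lists had medians between -0.28 and 0.61, with 9 of their 292 tested genes past the unadjusted threshold in each direction. Etfbkmt, a methyltransferase of a mitochondrial flavoprotein, was among the 12 genes with the smallest p towards primary tumours, with a difference of 1.24 (SE 0.35). Mreg, which acts in organelle transport, had 2.07 (SE 0.65), Nmrk1, a kinase of the NAD pathway, 0.89 (SE 0.29) and Ankrd24 0.92 (SE 0.31). Fbxl22, a muscle-enriched F-box protein, had 4.14 (SE 1.23), with 14.3 CPM in untreated allograft 3 and 27.3 CPM in irradiated primary tumour 4, both high in the muscle list (9.22 and 9.88). Tph2, an enzyme of serotonin synthesis named here after its values were seen, had the second smallest p of all genes (difference 4.58, SE 0.95, adjusted p = 0.171) and was too low to be named by the rule.

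The same difference was measured in the 24 tumours given anti-PD-1, which share no tumour with the isotype groups. There edgeR called 0 genes, DESeq2 3, and 922 genes (4.77%) were past the unadjusted threshold, 507 higher (2.62%) and 415 lower (2.15%). Of the 909 genes counted towards primary tumours under isotype, 488 (53.7%) had the same sign under anti-PD-1, and 617 of the 1005 (61.4%) did, beside 48.9% over all genes. Past the unadjusted threshold in both, 76 of the 909 had the same sign and 4 the opposite, and for the 1005 the counts were 59 and 0. The test of the 3-way difference between antibodies called 0 genes by edgeR (1037 at an unadjusted p under 0.05, smallest adjusted p 0.791).

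Among named genes, Ltb4r1 had 1.93 (SE 0.75) under anti-PD-1 beside 2.91, Ccl6 2.24 beside 2.75 and Camp 6.30 beside 5.18. Swap70 had -0.36 (SE 0.17) beside -0.92, and Abi1 -0.50 beside -0.57. Mmp13 had -0.05 (SE 0.81) beside -3.66 and Lbh -0.25 beside -1.44. The 3-way test gave unadjusted p = 0.003 for Mmp13, 0.0098 for Lbh and 0.023 for Swap70, and adjusted p of 0.791 or more in every gene. Of the 38 list medians, 25 had the same sign under both antibodies. The neutrophil list had 2.46 beside 2.49, muscle 2.61 beside 2.71 and interferon gamma 0.75 beside 0.70. Collagen (0.55 beside -0.45), proteases (0.53 beside -0.33), endothelium (0.15 beside -0.65), G2/M (0.07 beside -0.54), cholesterol (0.10 beside -0.38) and mast cells (-0.20 beside 0.93) had medians of opposite sign. So did dendritic cells (-0.47 beside 0.47), natural killer cells (-0.24 beside 0.37), MHC class II (-0.25 beside 0.36) and macrophages (-0.32 beside 0.01). The remaining lists of opposite sign were double-strand break repair (0.06 beside -0.28), pericytes (-0.01 beside 0.07) and TGF-beta (0.08 beside -0.09). Under anti-PD-1, 12 of the 20 G2/M differences were positive.

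**Figure D5:**
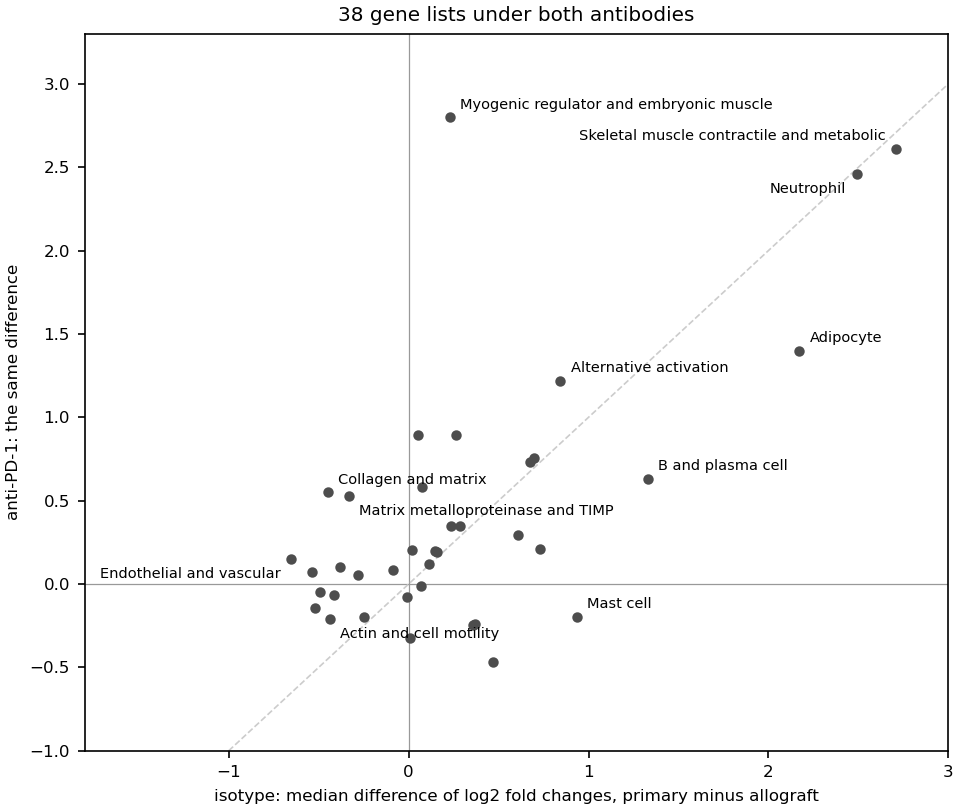
Median difference of radiation log2 fold changes, primary minus allograft, of 38 gene lists under isotype (horizontal axis) and anti-PD-1 (vertical axis), with the dashed line at equal values. Neutrophil (2.49 and 2.46) and skeletal muscle (2.71 and 2.61) lie on the line, whereas mast cell and collagen lists have medians of opposite sign.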

How the data were processed

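Raw counts per gene for 48 tumours were deposited by the authors in 1 table, with 36854 Ensembl genes, of which 36796 were named from GENCODE M21. Per the submitters' processing notes, Trimmomatic 0.36, STAR, HTSeq and build mm10 were used; the STAR version, annotation and strand setting are not given in the sources used here. Libraries were poly(A)-selected and stranded from RNA with an integrity number over 7, per the labels' protocols. Groups follow the labels, and samples carry separate animal identifiers, so each tumour was taken as 1 animal.

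All 48 tumours entered 1 edgeR 4.0.16 quasi-likelihood fit (R 4.3.3) with a coefficient per group, TMM factors and the default expression filter, which left 19327 genes and 40 residual degrees of freedom. The standard error is the log2 fold change divided by the square root of F. Adjusted p-values are Benjamini-Hochberg over all genes tested. The procedure was tested on simulated data. List levels are means of log2(CPM + 1).

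The tumours, lists and tests were chosen with earlier results of these data known. Named genes were the 12 with the smallest p in each direction at 5 CPM or more in a group, predicted genes left out, the 4 with the smallest p at 1 CPM or more in each described list, and a fixed panel; others named were chosen after their values were seen. Some genes that this rule names are not reported here. Lists were described if among the 8 highest or lowest medians or with over 20% of genes past the unadjusted threshold. Alternatives were DESeq2 1.42.0, limma 3.58.1 voom, other scalings and filters, added terms and leaving out each tumour. Coordinates and promoters are RefSeq, GRCm38.p6. Figures used matplotlib 3.10.9.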

Additional observations from a re-analysis of the deposited data

Results flagged for a closer look

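Dixon's rule for a value far from its group was applied to 196 groups of values (31 genes and the means of the 18 described lists, in groups of 4 or 8 tumours). It picked 7, which is fewer than the about 1 in 20 groups that chance alone picks. Irradiated primary tumour 3 stood apart for Mmp13, at 31.6 CPM, and for the G1/S and replication list, with the lowest mean log2(CPM + 1) of its group at 4.67. Irradiated primary tumour 5 had the highest interferon gamma list mean, 7.91, and irradiated primary tumour 8 the lowest fibroblast list mean, 5.22. Among irradiated allografts, tumour 4 stood apart for Mtmr4, at 77.4 CPM, and for the B and plasma cell list, at 1.90, and tumour 1 for Adgre1, at 343 CPM. The radiation response of Swap70 differed between kinds by a direct test (-0.916, SE 0.17, adjusted p = 0.0393 by edgeR).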

How the results depend on the processing

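The difference called 1 gene, and 0 with the 24 isotype tumours alone, RLE or upper quartile scaling, no filter, a filter of 1 CPM in 4 tumours, or Xist status, the identifier digit or muscle level as a term. It called 1 by voom without weights (Swap70), 3 with a weight per group (Lbh, Swap70 and Tph2), 4 by DESeq2 (Cap1, Lbh, Mmp13 and Swap70) and 1559 by voom with a weight per tumour, 1069 of them at p under 0.05 in edgeR. The cause of these shifts was not tested. Leaving out 1 tumour gave 0 to 2, and Swap70 was kept in 5 of 24 such fits, those without irradiated allograft 3, untreated primary tumours 4, 5 or 8, or irradiated primary tumour 6. Its adjusted p ran from 0.000752 to 0.649 over all alternatives, those by voom and DESeq2 included.

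At an unadjusted p under 0.05, higher counts were 1468 (upper quartile), 1764 (no filter) and 2759 (tumour weights), and lower counts 456 (upper quartile), 2759 (tumour weights) and 1522 (group weights). Without 1 tumour they ran from 493 to 1320 and from 508 to 1254, and untreated allograft 4 and irradiated allograft 4 lowered them most (493 and 508, and 519 and 667). The share of higher among these was 47.5%, and 76.3% under upper quartile scaling, 59.5% with RLE, 60.5% with no filter and 59.7% by DESeq2. Radiation calls in allografts were 239 (upper quartile), 230 (no filter), 35 (identifier digit), 4679 (tumour weights, where those in primary tumours were 4577), 1607 (group weights) and 599 (DESeq2). Without 1 tumour they ran from 72 (untreated allograft 4) to 635 (untreated allograft 3). Under anti-PD-1 DESeq2 called 3 genes.

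The adipocyte median was 1.42 (muscle term), 0.785 (tumour weights) and 1.31 (voom without weights and with group weights), and 1.02 to 3.45 without 1 tumour. The B and plasma cell median was 0.783 (Xist), 0.92 (identifier digit) and 0.644 (voom without weights and with group weights), and 0.857 to 1.62 without 1 tumour. The mast cell median was 0.146 with Xist status and -1.0 with the identifier digit, with Cma1 at -0.691 and Tpsab1 at -0.972. The skeletal muscle median was 0.0628 with the muscle term, which takes it out by construction, -0.0548 with tumour weights and 1.36 by voom without weights. Neutrophil medians ran from 1.66 to 2.76 without 1 tumour. Trp53 had -0.152 (Xist) and -0.432 (identifier digit), and -0.0882 to 0.178 without 1 tumour. With Xist status Cd8a had -0.0278 and Foxp3 -0.0546. Medians of the other described lists kept their sign in all alternatives, but several moved by over 1.5 times without 1 tumour (given in the report), such as collagen to -0.225, proteases to -0.174, cholesterol to -0.241 and fibroblast to -0.0844. In other settings the type I interferon median was -0.128 (Xist), -0.137 (identifier digit), -0.269 (muscle term), -0.204 (tumour weights) and -0.19 (voom without weights and with group weights). The fibroblast median was -0.747 (Xist), -0.744 (identifier digit), -0.701 (muscle term), -0.179 (voom without weights) and -0.181 (group weights). Collagen had -0.798 (identifier digit) and -0.673 (tumour weights), proteases -0.202 (upper quartile) and -0.198 (Xist), cholesterol -0.241 (upper quartile), monocytes 1.02 (tumour weights), T cells 0.355 (Xist) and 0.978 (tumour weights), and inhibitory receptors 0.487 (Xist). With tumour weights, genes past the unadjusted threshold numbered 11 (G2/M), 10 (G1/S), 11 (actin), 6 (endothelial), 4 (collagen) towards allografts, and 8 (monocyte), 6 (inhibitory receptor) and 9 (neutrophil) towards primary tumours. In that fit 2759 of all genes passed in each direction. The endothelial count was 1 in the main fit, 4 with the muscle term and 0 with RLE, upper quartile or the 1 CPM filter. The G1/S count was 0 with upper quartile or the identifier digit.

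No paired analysis was possible because the labels give no replicate numbers that groups share. With 4 allografts per dose and a median standard error of 0.437, most differences of single genes are within error, and genes near 1 CPM are the least certain.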

Other observations

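Genes in this section were chosen after their values were seen, and none passed adjustment for the difference by edgeR. In the TGF-beta list the ligand Tgfb1 rose in allografts (0.67, SE 0.16, adjusted p = 0.02) and had 0.11 in primary tumours, and the receptor Tgfbr2 fell in primary tumours (-0.45, SE 0.15, adjusted p = 0.0336) and had 0.28 in allografts. With Tgfbr1 these were 3 of 17 genes past the unadjusted threshold. The nuclear receptors Nr4a1 and Nr4a3, which respond within minutes to many stimuli, had allograft values of -2.07 and -1.97 and primary values of 0.11 and 0.11. Their untreated levels were lower in primary tumours than in allografts (-3.14 and -2.90, adjusted p = 9.1e-05 and 0.000365).

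Gdf15, a secreted stress factor and p53 target, rose in both kinds, by 3.22 in allografts (adjusted p = 0.00217) and 1.87 in primary tumours (adjusted p = 0.000411), with a difference of -1.35 (SE 0.66). Trem2, a receptor of lipid-handling macrophages, had a difference of 1.67 (SE 0.58), from 0.09 in primary tumours and -1.58 in allografts, and -0.39 under anti-PD-1. The cytokine Il6 rose in primary tumours (2.52, SE 0.67, adjusted p = 0.00704) and had 0.25 in allografts.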
